A study of Macaca fascicularis with 6 samples.

Results

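Periostin (POSTN), tenascin C (TNC), fibronectin (FN1), SPARC, thrombospondin 1 (THBS1) and thrombospondin 2 (THBS2) were followed through the lung cells of cynomolgus monkeys with and without an Ascaris suum-induced asthma. The 6 genes were taken by their symbols from the gene tables of the libraries. Each symbol matched 1 gene identifier of 28623, and all 6 were among the 21415 genes with at least 1 unique molecular identifier (UMI, a tag that marks 1 captured transcript) in a cell that passed quality control. The identifiers were ENSMFAG00000045597 for POSTN, ENSMFAG00000001848 for TNC, ENSMFAG00000032168 for FN1, ENSMFAG00000038613 for SPARC, ENSMFAG00000033011 for THBS1 and ENSMFAG00000038327 for THBS2. The lung tissue of 6 male monkeys, 3 to 5 years old, was dissociated and profiled with droplet-based 3′ single-cell RNA sequencing, 1 library for each monkey. The 3 monkeys of the asthma group (replicates 8, 10 and 11) had been sensitized with A. suum antigen in adjuvant under the skin and then challenged with A. suum through the nose, and the 3 of the control group (replicates 1, 2 and 3) had received saline in both steps. Red cells were lysed and dead cells taken out with beads before loading, and the cells were not sorted.

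Matricellular proteins are secreted into the extracellular matrix, where they bind collagens, growth factors and cell surface integrins and tune how cells attach, migrate and respond to injury. Periostin is induced by interleukin 4 and interleukin 13 in airway epithelium and fibroblasts and is known as a marker of type 2 airway inflammation. Fibronectin is a structural matrix glycoprotein that shares their integrin receptors and is usually described together with them.

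Total UMIs were 40556102, 33210436 and 32240293 in the control libraries and 41184329, 41489879 and 29014556 in the asthma libraries, in replicate order. Quality control left 4339, 3200 and 3902 control cells with medians of 4320.0, 5048.5 and 4700.5 UMIs, and 4136, 4620 and 4038 asthma cells with medians of 4034.0, 3835.0 and 4180.5 UMIs. Cells were clustered without the 6 genes and named by fixed markers, so that a class carries the ending -like. Alveolar epithelium, which defines lung tissue, was present, with SFTPC (surfactant protein C) at 236899.8 CPM (UMIs of a gene per 1000000 UMIs of the same cells) in AT2-like cells and AGER at 11898 CPM in AT1-like cells. Of the kept cells, 150 had a barcode sequence that also occurred in another library (0.619%). Asthma replicate 11 stood apart in its make-up, with 596 stromal-like cells of 4038 (14.8%) against 2.25% to 7.10% in the other 5 libraries.

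The genes differed widely in abundance and in the cells that held them. Over all kept cells, FN1 had 121142 UMIs in 7055 of 24235 cells, SPARC 33286 UMIs in 3841 cells, THBS1 7287 UMIs in 2071 cells, THBS2 1726 UMIs in 775 cells, POSTN 1494 UMIs in 292 cells and TNC 439 UMIs in 239 cells. Stromal-like cells, 1290 in all, held 88.1% of the UMIs of POSTN, 74.5% of TNC, 68.8% of THBS2, 40.6% of SPARC, 13.8% of THBS1 and 11% of FN1. Stromal-like cells thus held most pooled UMIs of POSTN, TNC and THBS2, although 47.1% of TNC in asthma replicate 8 and 37.5% of THBS2 in control replicate 1. SPARC was shared by stromal-like, mesothelial-like, endothelial-like and AT1-like cells, and most pooled UMIs of FN1 and THBS1 lay in macrophage-like and monocyte-like cells. These pooled shares differed strongly between libraries for FN1, SPARC and THBS1. For SPARC, stromal-like cells held 28.2%, 69.4% and 44.5% in the control and 23.9%, 12.6% and 58.7% in the asthma libraries, and mesothelial-like cells 32%, 10.8% and 12.6% against 38.5%, 45.7% and 5.16%.

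**Figure D1:**
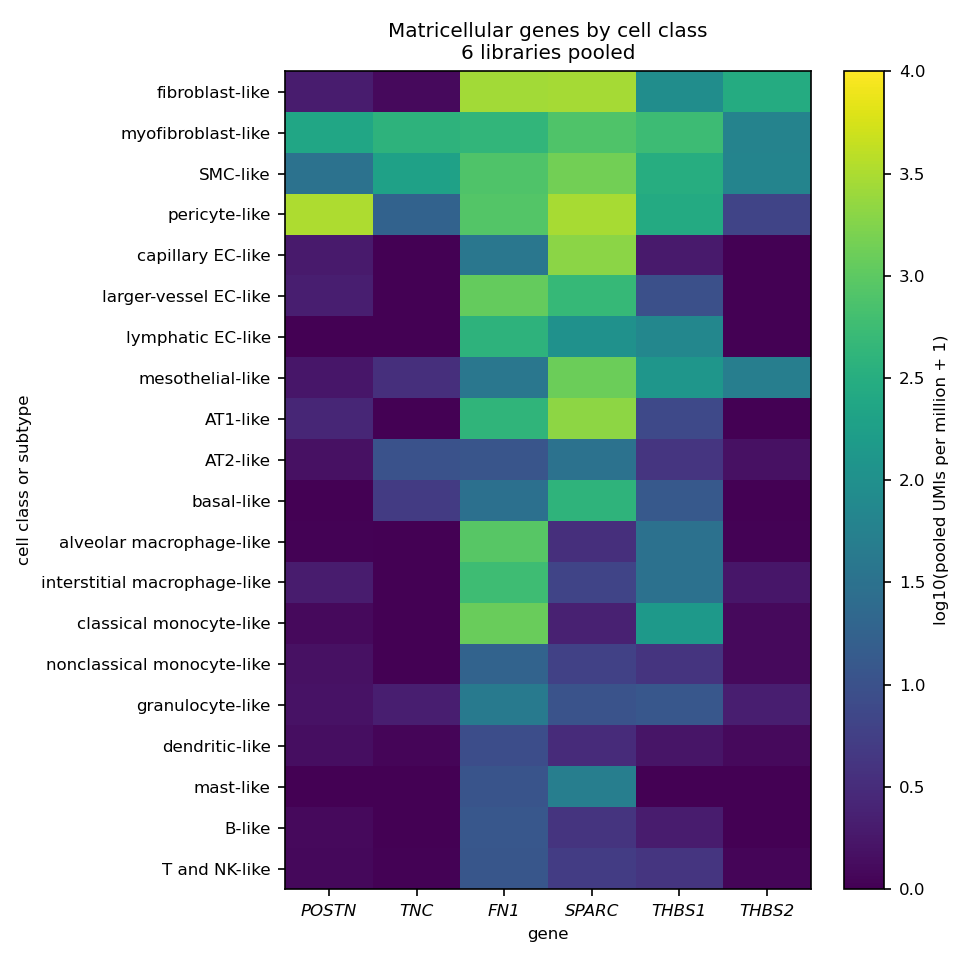
Heatmap of the 6 genes (columns) in 20 cell classes and subtypes (rows), coloured by log10 of the pooled level (CPM + 1) over the 6 libraries. The brightest POSTN cell is in the pericyte-like row (3200.5 CPM), that of TNC in the myofibroblast-like row (389.9 CPM), that of THBS2 in the fibroblast-like row (284 CPM), and SPARC is bright in pericyte-like, fibroblast-like, AT1-like and capillary EC-like rows.

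Levels were ordered over the classes with at least 10 cells in at least 4 libraries, and each class was compared with the next one in the order within libraries. This left out scarce cells, among them the pericyte-like, myofibroblast-like and SMC-like cells and unnamed stromal-like sub-clusters. Of the latter, that led by MACF1 and ADRA1A had a mean FN1 of 3306 CPM (n = 3), and that led by IGFBP2 and CLDN1 had 7168 CPM (n = 1, asthma replicate 8). Among the ordered classes FN1 was highest in fibroblast-like cells, with a mean of 2679 CPM (SD 713, n = 6 libraries). The macrophage-like cells of neither named subtype followed with 1555 CPM (SD 449, n = 6). Larger-vessel endothelial-like cells had 1115 CPM (SD 219, n = 6) and classical monocyte-like cells 1071 CPM (SD 439.8, n = 5). SPARC was highest in fibroblast-like cells (2916 CPM, SD 2675, n = 6), then in capillary EC-like (2102 CPM, SD 310.4, n = 4), AT1-like (1852 CPM, SD 369.7, n = 4) and mesothelial-like cells (1342 CPM, SD 359, n = 6). Control replicate 2 (8123 CPM) raised the SPARC mean of fibroblast-like cells, which was 1875 CPM (SD 903, n = 5) without it. The mean was then 2011 CPM (SD 308, n = 3) in capillary EC-like and 1852 CPM in AT1-like cells, but over fewer libraries. For capillary EC-like cells only asthma replicates 8, 10 and 11 were left, with 1692, 2306 and 2034 CPM. Fibroblast-like cells had 3285, 1540.2 and 2223 CPM in the same libraries, so neither class was higher in every one. THBS1 was led by classical monocyte-like cells with 240.4 CPM (SD 194, n = 5), and THBS2 by fibroblast-like cells with 285 CPM (SD 156, n = 6) before mesothelial-like cells with 60.6 CPM (SD 25.7, n = 6). Of the 102 pairs of neighbours in the 6 orders, none differed at an adjusted p under 0.05 in a two-sided exact sign-flip test of log2(CPM + 10), adjusted after Benjamini and Hochberg. FN1 in fibroblast-like over the next class, SPARC in mesothelial-like over larger-vessel EC-like and THBS2 in fibroblast-like over mesothelial-like cells were each higher in 6 of 6 libraries, with the smallest exact p that 6 libraries allow (0.0312, adjusted p = 1). Pairs that shared fewer libraries could not reach that p, and after adjustment over 102 pairs none could pass. The lack of a passing pair therefore says nothing about the order. For POSTN no class in this order exceeded a mean of 2.74 CPM.

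In asthma replicates 10 and 11, most POSTN UMIs lay in a small set of stromal-like cells that carried pericyte markers, and in the control libraries most lay in myofibroblast-like cells. Pericytes wrap capillaries and small vessels from the outside. The 158 pericyte-like cells had high pooled levels of COX4I2 (6993 CPM), PDGFRB, the receptor that pericytes need for recruitment to vessels (3009.6 CPM), NOTCH3 (2445 CPM), HIGD1B (2069 CPM) and TRPC6 (657 CPM). RGS5, another pericyte marker, was at 766 CPM there but at 1937 CPM in an unnamed endothelial-like sub-cluster led by ENPP2 and KIT. The pericyte-like cells held 1140 of the 1494 POSTN UMIs (76.3%), of which asthma replicate 11 gave 798, and without that library they held 342 of 625 (54.7%). The share was 3.12%, 0% and 15.5% in the control and 42.1%, 74.9% and 91.8% in the asthma libraries. Of the pericyte-like cells, 88.0% had at least 1 POSTN UMI. After thinning to 1500 UMIs per cell, which left 111 pericyte-like cells and removed 47, the share was 82.9%. In T and NK-like cells, which serve as background, 0.0690% of cells had a POSTN UMI before and 0.0310% after thinning. The POSTN level of the T and NK-like cells was 0, 0.137 and 0.126 CPM in the control and 0.287, 0.298 and 0.786 CPM in the asthma libraries, so this background was itself higher in asthma, without overlap. These levels rested on only 9 UMIs in 10145 cells. The median depth was 2109.5 UMIs in pericyte-like and 3659.0 UMIs in T and NK-like cells, so the shallower cells had the higher share.

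Nearly all pericyte-like cells came from the asthma group. Control replicates 1, 2 and 3 held 1, 0 and 1 of them, and asthma replicates 8, 10 and 11 held 7, 25 and 124. The 0 of 3200 cells in control replicate 2 allows a share of up to 0.0938%, a limit that, as all such limits here, covers counting error only. All 3 asthma libraries exceeded all 3 control libraries, and the difference in the share of kept cells was 1.24 percentage points (p = 0.1 in a two-sided exact permutation test, where 3 against 3 libraries cannot give less). Without asthma replicate 11 the difference was 0.339 percentage points. POSTN in these cells was 64, 268 and 798 UMIs in the asthma libraries, or 6399, 6806 and 2625 CPM, and 1 and 9 UMIs in the single cells of control replicates 1 and 3. With 2 control cells, a level within pericyte-like cells could not be compared between the groups.

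The second source of POSTN was the myofibroblast-like cells, which were marked by SOSTDC1 (1557 CPM) and held 163 POSTN UMIs in 282 cells. Their POSTN UMIs were 21, 20 and 36 in the control libraries from 54, 5 and 67 cells, and 43, 28 and 15 in the asthma libraries from 8, 6 and 142 cells. They supplied 65.6%, 80.0% and 62.1% of the POSTN UMIs of the control libraries and 28.3%, 7.82% and 1.73% of those of the asthma libraries. In the libraries with at least 10 of these cells, the POSTN level was 140.3 CPM in control replicate 1, 254 CPM in control replicate 3 and 40.5 CPM in asthma replicate 11. In control replicate 2 and asthma replicates 8 and 10, with 5, 8 and 6 cells, it was 1219.8, 1918 and 1829.6 CPM. The 655 fibroblast-like cells held only 4 POSTN UMIs, all in asthma replicate 11, and the 5 libraries without one allow levels of up to 3.24 to 11.7 CPM. Endothelial-like cells held 6 POSTN UMIs, epithelial-like cells 5 and mesothelial-like cells 5. Clusters of mixed markers, which took no name, held 130 (8.70%).

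**Figure D2:**
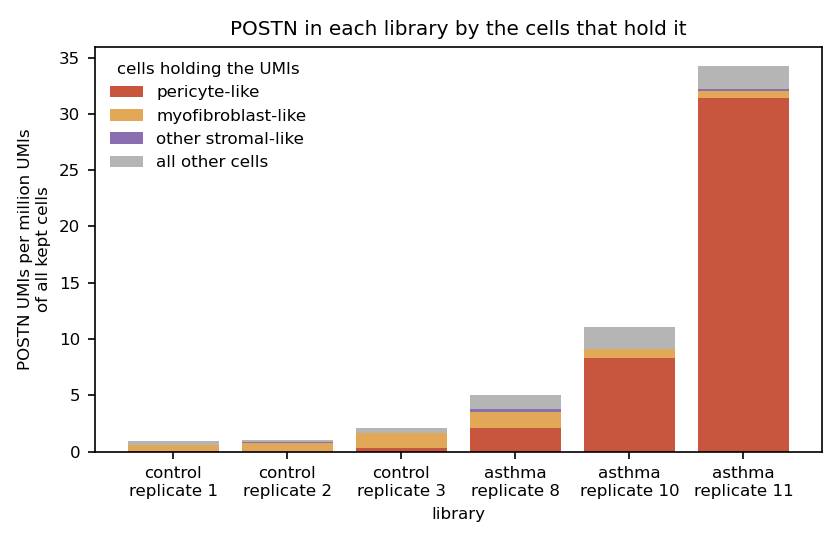
Stacked bars of POSTN in each of the 6 libraries (horizontal axis), in CPM of all kept cells (vertical axis, from 0), split by the cells that hold them. The bars reach 0.927, 1.02 and 2.11 in the control libraries and 5.04, 11.1 and 34.2 in the asthma libraries, where the pericyte-like part makes up 42.1%, 74.9% and 91.8%.

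The comparison of asthma with control asked whether the matricellular genes differed with the disease, over whole libraries and within classes. In sums over all kept cells, POSTN was at 0.927, 1.02 and 2.11 CPM in the control and at 5.04, 11.1 and 34.2 CPM in the asthma libraries. The groups did not overlap, and asthma replicate 11 was highest. Its log2 fold change was 3.50 (SE 0.75). The quasi-likelihood F test of edgeR, adjusted over all 14306 genes after Benjamini and Hochberg, gave it an adjusted p of 0.177, so the difference did not pass. A gene was called when its adjusted p lay below 0.05 and its log2 fold change beyond 0.25 in either direction. Such calls were made for 0.0839% of the genes in that comparison and for none of the 6 genes, of which 1, POSTN, had an unadjusted p under 0.05 (0.00261). DESeq2 called POSTN (log2 fold change 3.52, adjusted p = 2.70e-05). Without asthma replicate 11 the log2 fold change was 2.49 (adjusted p = 0.184). Over all kept cells, summed pericyte markers were at 21.7, 32 and 51.8 CPM in the control and 79.4, 55.6 and 288 CPM in the asthma libraries. Capillary markers were at 140.2, 104 and 334 CPM against 793, 820.4 and 1049 CPM, and AT1 markers at 486, 537 and 506 CPM against 1150.3, 705 and 930.2 CPM. The part of these lists in the POSTN values was not tested. In such sums over a library, fewer cells of a type and less RNA per cell cannot be told apart.

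Summed over the stromal-like cells, POSTN was at 52.0, 34.7 and 38.0 CPM in the control libraries and at 142, 652 and 393 CPM in the asthma libraries. Every asthma library was above every control library. POSTN rose 8.35-fold (log2 fold change 3.06, SE 0.47, adjusted p = 0.0423 in edgeR), and it was the only one of the 6 genes called there, in a comparison that called 0.342% of 7309 genes. The call was lost without control replicate 1 (adjusted p = 0.129), control replicate 2 (0.0791), control replicate 3 (0.229), asthma replicate 10 (0.0615) or asthma replicate 11 (0.0584), with log2 fold changes between 2.50 and 3.19. The pericyte markers moved in the same direction, and 4 other marker sums also did not overlap between the groups. The summed pericyte level, over 9 of 9 listed genes with none at 0 and COX4I2 the most abundant, was 309.7, 243 and 411 CPM in the stromal-like cells of the control and 466, 1437 and 2756 CPM in those of the asthma libraries. Macrophage markers (9 of 9, none at 0) summed to 1685, 2937 and 1147 CPM in the control and 6249, 6487 and 4739.7 CPM in the asthma libraries, nearly all of it APOE, and the other 8 summed to 82.7, 24.8 and 14.4 CPM against 58.1, 50.7 and 47.1 CPM, with overlap. The 37 mitochondrial genes, a sign of RNA quality, summed to 78340.4, 80692 and 72262 CPM in the control and 65641, 63629.7 and 56022 CPM in the asthma libraries. Capillary markers (9 of 9, 1 at 0, EPAS1 the most abundant) summed to 135, 183 and 175 CPM against 218, 359 and 581 CPM, and platelet markers (7 of 7, 2 at 0, ITGA2B the most abundant) to 1.65 to 4.22 CPM against 4.41 to 7.21 CPM. The part of these 4 lists in the POSTN result was not tested. With the pericyte-like cells left out of the sums, an alternative chosen after seeing the data, POSTN was at 49.8, 34.7 and 30.5 CPM in the control and 63.8, 67.6 and 10.7 CPM in the asthma libraries. The groups then overlapped, and the log2 fold change was 0.09 (SE 0.61, adjusted p = 0.986). The share of stromal-like cells with a POSTN UMI, thinned to 1500 UMIs, was 8.25%, 2.33% and 5.91% in the control and 12%, 19% and 17.8% in the asthma libraries (unthinned 13.6%, 4.40% and 7.94% against 15.1%, 29.8% and 19.8%). The difference of 10.8 percentage points had the smallest exact permutation p that the design allows (0.1).

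**Figure D3:**
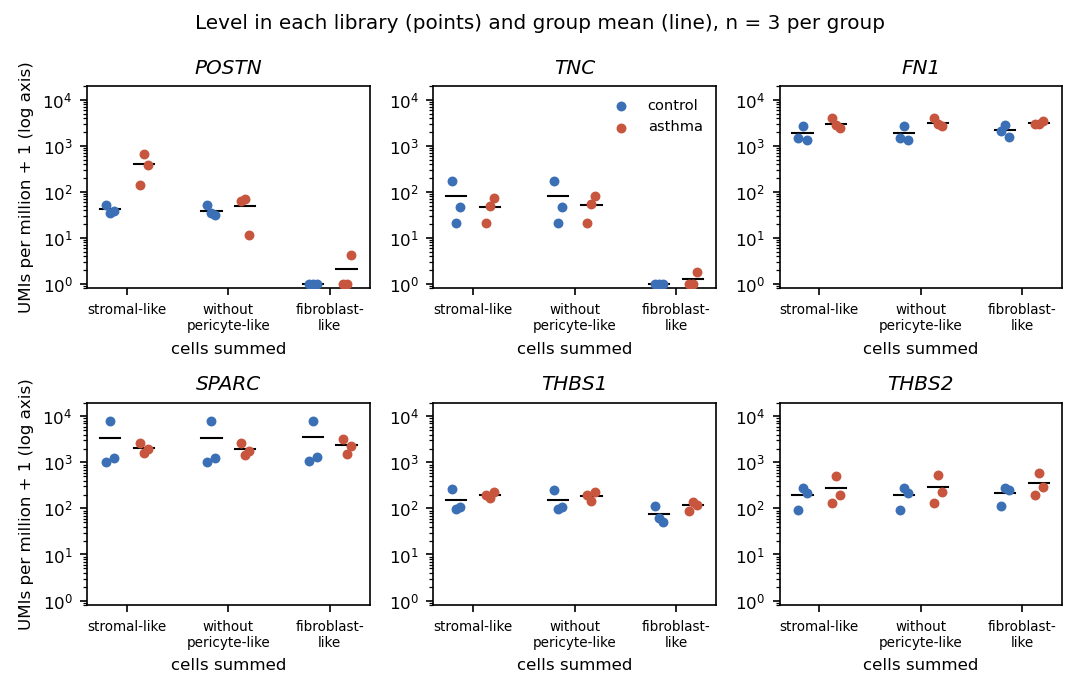
Level of each gene as CPM + 1 (vertical, log axis) in the stromal-like cells, in the stromal-like cells without the pericyte-like cells and in the fibroblast-like cells alone (horizontal), with a point for each library and a line at the arithmetic mean of 3 libraries per group. Asthma and control points of POSTN are apart in the first column (34.7 to 52.0 against 142 to 652 CPM) and overlap in the second (30.5 to 49.8 against 10.7 to 67.6 CPM), and control replicate 2 is the high SPARC point (7800.4 CPM).

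TNC, a large branched glycoprotein that is laid down under the airway epithelium in repair, was the rarest of the 6 genes and had its largest pooled part in myofibroblast-like cells, the cells that also held most POSTN of the control libraries. Myofibroblast-like cells held 279 of its 439 UMIs (63.6%), SMC-like cells 37 and pericyte-like cells 6, while AT2-like cells held 35. The myofibroblast-like share of TNC UMIs was 78.3%, 33.3% and 48.7% in the control and 32.4%, 44.1% and 75.3% in the asthma libraries, highest in control replicate 1 and asthma replicate 11. Summed over the asthma libraries it was 65.2%, and 38.2% without asthma replicate 11. In myofibroblast-like cells TNC was at 481 CPM in control replicate 1, 261 CPM in control replicate 3 and 370.2 CPM in asthma replicate 11, the libraries with at least 10 such cells. There, 51.1% of cells had a TNC UMI (41.4% thinned) against 0.0197% of T and NK-like cells (0.0103% thinned), with median depths of 2297.0 and 3659.0 UMIs. POSTN was found in 25.7% of the 144 myofibroblast-like cells with TNC and in 16.7% of those without, but the cells with TNC were also deeper (median 2823.0 against 2099.5 UMIs).

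In stromal-like cells as a whole, TNC was at 170.2, 19.8 and 46.5 CPM in the control and 19.8, 48.5 and 72.1 CPM in the asthma libraries, where control replicate 1 was highest and the groups overlapped. Its log2 fold change of −0.77 (SE 0.62, adjusted p = 0.707) did not pass, with a 95% interval from −1.99 to 0.44. The summed level of the 7 myofibroblast markers there, led by SOSTDC1 and with none at 0, was 1307, 409.7 and 818 CPM in the control and 278, 342 and 660.5 CPM in the asthma libraries, and its part in the TNC values was not tested. No TNC UMI was found in 858 endothelial-like cells, which allows levels of up to 3.21 to 19.1 CPM in the single libraries.

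FN1 fell in endothelial-like cells. It was at 785, 830.4 and 491 CPM in the control and at 449, 272 and 248 CPM in the asthma libraries, without overlap. The level was 2.43-fold lower in asthma (log2 fold change −1.28, SE 0.29, adjusted p = 0.0294 in edgeR), in a comparison that called 6.07% of 6471 genes, 162 higher and 231 lower. The call was lost without control replicate 1 (log2 fold change −1.14, adjusted p = 0.0874), control replicate 2 (−1.15, 0.108), asthma replicate 10 (−1.15, 0.122) or asthma replicate 11 (−1.10, 0.084), with doublets removed (−1.26, 0.0688) or at clustering resolution 1.6 (−1.58, 0.0779). The thinned share of endothelial-like cells with an FN1 UMI was 46.9%, 48.4% and 41.7% in the control and 22.0%, 12.2% and 22.4% in the asthma libraries (unthinned 70.3%, 60.6% and 53.3% against 23.9%, 19.1% and 29.4%), a difference of −26.8 percentage points (exact permutation p = 0.1, the smallest possible). In T and NK-like cells, 1.65% had an FN1 UMI after and 3.92% before thinning, and the median depths were 3021.0 UMIs for endothelial-like and 3659.0 UMIs for T and NK-like cells.

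The make-up of the endothelial-like cells moved with this result. Capillary EC-like cells, in which FN1 was at a pooled 38.2 CPM, were 0.184%, 0.406% and 0.154% of kept cells in the control and 2.47%, 2.66% and 2.33% in the asthma libraries, with a difference of 2.24 percentage points (exact permutation p = 0.1). The ENPP2 and KIT sub-cluster, in which FN1 was at a pooled 142 CPM, was 0.0922%, 0% and 0.0769% of kept cells in the control (7 cells) and 1.74%, 1.36% and 3.05% in the asthma libraries (258 of 758 endothelial-like cells). The summed level of 9 of 9 capillary markers in endothelial-like cells, led by EPAS1 and with none at 0, was 8092, 7474 and 5559.9 CPM in the control and 20772, 24499 and 21796 CPM in the asthma libraries. That of 8 of 8 larger-vessel markers, led by CPE and with none at 0, was 15595, 13293 and 10444 CPM against 8132, 4752 and 4449 CPM. AT1 markers (8 of 8, none at 0, EMP2 the most abundant) summed to 1169, 944 and 809.8 CPM in these cells of the control and 1665, 1918 and 1499 CPM in those of the asthma libraries, and their part was not tested. Within larger-vessel EC-like cells FN1 was at 954, 1293 and 1094 CPM in the control and 1309, 1270.2 and 768 CPM in the asthma libraries. The groups overlapped there, with a log2 fold change of −0.04 (SE 0.28, adjusted p = 0.999, 95% interval from −0.59 to 0.52). Capillary EC-like cells reached 10 cells in 1 control library, and the ENPP2 and KIT sub-cluster in none, so FN1 was not tested within either.

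SPARC, a collagen-binding glycoprotein, showed higher values in the endothelial-like cells of asthma but did not pass the test there. It was at 650.1, 803 and 134 CPM in the control and at 1161, 1698 and 1285 CPM in the asthma libraries, without overlap, and its log2 fold change was 1.21 (SE 0.46, unadjusted p = 0.0243, adjusted p = 0.161). SPARC had a pooled level of 2040.3 CPM in capillary EC-like cells, 1420 CPM in the ENPP2 and KIT sub-cluster and 483 CPM in larger-vessel EC-like cells. Within the larger-vessel EC-like cells its log2 fold change was −0.08 (SE 0.41, adjusted p = 0.999).

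**Figure D4:**
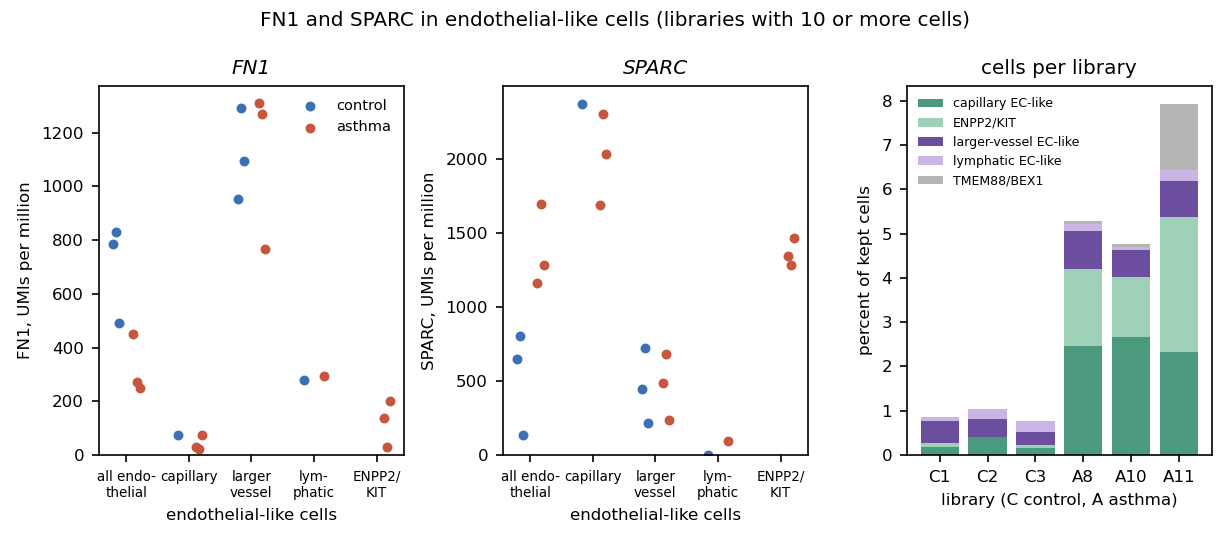
Left and middle, FN1 and SPARC in CPM (vertical) in all endothelial-like cells and their subtypes (horizontal), with a point for each library of at least 10 cells; right, stacked shares of the endothelial-like subtypes in percent of kept cells for control (C) and asthma (A) libraries. FN1 lies between 491 and 830.4 CPM in the control and 248 and 449 CPM in the asthma libraries over all endothelial-like cells, the larger-vessel points of both groups overlap, and the bars stand at 0.769% to 1.03% against 4.76% to 7.92%.

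In fibroblast-like cells, FN1 was at 2068, 2837 and 1596 CPM in the control and at 2988, 3047 and 3538 CPM in the asthma libraries. Every asthma library was above every control library, but the log2 fold change of 0.43 (SE 0.29, adjusted p = 0.667) did not pass. Macrophage markers in the same cells, 9 of 9 with none at 0, summed to 1907, 3045 and 1309.9 CPM in the control and 6390.2, 7507 and 6546 CPM in the asthma libraries. Nearly all of this was APOE, and the other 8 summed to 54.8, 26 and 12.9 CPM against 50.8, 36 and 44.1 CPM, with overlap. Myofibroblast markers (7 of 7, 1 at 0, HHIP the most abundant) summed to 576, 345 and 402 CPM against 238, 202 and 207 CPM, and the part of either list in the FN1 values was not tested. SPARC in these cells was at 1046, 8123 and 1282 CPM in the control and 3285, 1540.2 and 2223 CPM in the asthma libraries. Control replicate 2 was far above the other 5 libraries, and the log2 fold change of −0.72 (SE 0.66, adjusted p = 0.777) turned to 0.96 (adjusted p = 0.306) without it. The other tested pair were THBS1, with a log2 fold change of 0.60 (SE 0.29, adjusted p = 0.51), and THBS2, with 0.52 (SE 0.38, adjusted p = 0.703). THBS2, an inhibitor of angiogenesis that also affects collagen fibril assembly, was at 114, 283 and 256 CPM in the control and 193, 573 and 294 CPM in the asthma libraries, and the groups overlapped. None of the 4 tested genes was called in fibroblast-like cells by edgeR or by DESeq2 and none had an unadjusted p under 0.05, while 0.601% of 6155 genes were called by edgeR. Of the stromal-like subtypes, the fibroblast-like cells alone reached 10 cells in every library, so a mean over subtypes with equal weight rested on them. On that log2(CPM + 10) scale, the asthma libraries differed from the control libraries by 0.59 for FN1 (exact permutation p = 0.1), 0.61 for THBS1 (p = 0.2, exact permutation test), 0.64 for THBS2 (p = 0.4, exact permutation test) and 0.01 for SPARC (p = 1, exact permutation test).

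Over all libraries together, most FN1 UMIs lay in macrophage-like cells, which held 83215 of 121142 (68.7%). The share was 90.1%, 63.4% and 36% in the control and 67.6%, 78.4% and 29.2% in the asthma libraries, and it was lowest in control replicate 3 and in asthma replicate 11, where stromal-like cells held more (35.4%). The FN1 level of the macrophage-like cells was 1742, 1738 and 471 CPM in the control and 1254, 1202 and 670.3 CPM in the asthma libraries. Control replicate 3 and asthma replicate 11 were the low libraries of their groups, and the log2 fold change was −0.46 (SE 0.50, adjusted p = 0.912). In epithelial-like cells FN1 was at 31.9, 66.8 and 27.4 CPM in the control and 215, 46.6 and 75.5 CPM in the asthma libraries (log2 fold change 1.43, SE 0.59, unadjusted p = 0.0409, adjusted p = 0.651). Its pooled level was 417 CPM in AT1-like cells, the flat cells of the alveolar wall, whose share of kept cells was 0.392%, 0.125% and 0.0769% in the control and 2.61%, 0.866% and 2.40% in the asthma libraries.

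THBS1, a large glycoprotein that can activate latent TGF-beta, had most pooled UMIs in monocyte-like (42.0%) and macrophage-like cells (20.9%). The monocyte-like share was 51.5%, 18% and 19.3% in the control and 13.8%, 16.5% and 63.5% in the asthma libraries, so the pooled share rested on control replicate 1 and asthma replicate 11. Macrophage-like cells held 31.2%, 40.7% and 36.6% against 17.7%, 8.82% and 5.86%, and mesothelial-like cells held 28.3% in asthma replicate 8 and 54.2% in asthma replicate 10. Its highest pooled level among the named subtypes was in myofibroblast-like cells (542 CPM). By library, THBS1 there was at 514, 1098 and 360.1 CPM in the control and 357, 131 and 627 CPM in the asthma libraries. The values of control replicate 2 and asthma replicates 8 and 10 came from only 5, 8 and 6 cells. Other named subtypes were higher in some libraries. Among them were classical monocyte-like cells in control replicate 1 (534 CPM) and asthma replicate 10 (326 CPM), and SMC-like cells in asthma replicates 8 and 10 (757 and 746 CPM, from 7 and 2 cells). In monocyte-like cells THBS1 was at 529.8, 26.0 and 70.8 CPM in the control and 77.1, 104 and 192 CPM in the asthma libraries, with control replicate 1 far above the rest. In macrophage-like cells it was at 39.5, 26.1 and 42.2 CPM in the control and at 13.1, 4.11 and 21.6 CPM in the asthma libraries, without overlap. The log2 fold change there was −1.64 (SE 0.50, unadjusted p = 0.0126, adjusted p = 0.76) and did not pass. Platelets release THBS1, and the 7 of 7 platelet markers summed to 1.5, 5.09 and 6.79 CPM in the macrophage-like cells of the control and 2.16, 1.06 and 1.47 CPM in those of the asthma libraries, with PF4 the most abundant and 2 markers at 0. THBS1 is also known as an early response gene. The 15 of 16 immediate-early genes in the files, led by FOS and with none at 0, summed to 10121, 6647 and 9859.7 CPM in the control and 7752, 10478 and 3924 CPM in the asthma libraries, and their part was not tested. Larger-vessel markers (8 of 8, 1 at 0, VWF the most abundant) summed to 15.4, 16.1 and 26.9 CPM against 50, 42.3 and 53.2 CPM in these cells, AT1 markers (8 of 8, none at 0, HOPX the most abundant) to 9.86, 12.1 and 14.9 CPM against 15.9, 17.5 and 33.5 CPM, and fibroblast markers (10 of 10, none at 0, SERPINF1 the most abundant) to 30.8, 27.7 and 19.9 CPM against 32.3, 42.3 and 72.7 CPM, and their part was not tested either.

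SPARC in alveolar macrophage-like cells had a log2 fold change of 1.75 (SE 0.51, unadjusted p = 0.0109, adjusted p = 0.944) at levels of only 1.43, 1.12 and 0.687 CPM in the control and 3.57 and 4.49 CPM in asthma replicates 8 and 11, the asthma libraries with at least 10 of these cells. In T and NK-like cells the share with a SPARC UMI was 0.160%, 1.20% and 0.646% in the control and 1.79%, 1.91% and 5.08% in the asthma libraries, so the SPARC background was also higher in all 3 asthma libraries, with an exact permutation p of 0.1, the smallest possible.

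Across the 13 comparisons, 39 of the 78 possible tests of the 6 genes passed the filter on low counts, 2 were called (POSTN in stromal-like and FN1 in endothelial-like cells) and 7 had an unadjusted p under 0.05. Over all genes the share with such a p was between 3.66% and 21.1% in these comparisons. DESeq2 called 3, the same pair and POSTN in all kept cells. None of the genes tested was called in mesothelial-like cells, where 0.037% of 5408 genes were called, or in basal-like cells, where 0.0399% of 2505 were, by either tool. In both, no tested gene of the 6 had an unadjusted p under 0.05. In monocyte-like, macrophage-like, epithelial-like, larger-vessel EC-like, alveolar macrophage-like, interstitial macrophage-like and classical monocyte-like cells, edgeR called 0 genes of any kind (0%), although 481, 583, 658, 120, 462, 247 and 240 genes, in that order, had an unadjusted p under 0.05, and DESeq2 called 15, 41, 5, 3, 23, 0 and 1.

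The other matricellular genes, 12 of which were tested in stromal-like cells, gave no call there in edgeR. SPARCL1, a relative of SPARC, had a log2 fold change of −0.27 (SE 0.28), the elastic fibre protein FBLN1 −0.14 (SE 0.34), CCN2, known as connective tissue growth factor, 0.11 (SE 0.47) and CCN1 −0.22 (SE 0.36). Their median was −0.02 against 0.00 for all genes tested, 2 had an unadjusted p under 0.05, and DESeq2, which called 1.38% of all genes there, called 2, CCN3 and TGFBI, as lower. Of the 9 receptors tested there, among them LRP1 (−0.07, SE 0.23) and the integrin subunit ITGB1 (0.10, SE 0.29), edgeR called none, 1 had an unadjusted p under 0.05 and DESeq2 called 1, ITGA8, as higher. Of the 11 tested matrix partners, which include the fibrillar collagens COL1A1 (−1.03, SE 0.99), COL3A1 (−0.53, SE 0.84) and COL1A2 (−0.36, SE 0.75) and the microfibril gene FBN1 (−0.66, SE 0.27), neither edgeR nor DESeq2 called any, and 3 had an unadjusted p under 0.05. Of the 13 inducers and TGF-beta pathway genes tested there, neither tool called any and none had an unadjusted p under 0.05. Of the 13 immediate-early genes tested there, neither tool called any and 2 had an unadjusted p under 0.05. Of all genes tested there, 10.5% had an unadjusted p under 0.05. Of the IL-13 response genes 1 was tested, ALOX15, a lipoxygenase, with a log2 fold change of −2.59 (SE 0.85, unadjusted p = 0.0123, adjusted p = 0.301 in edgeR), which neither tool called.

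In endothelial-like cells, 6 genes of the lists were called along with FN1, all lower in asthma, where edgeR called 3.57% of all genes tested as lower. They were 2 of 11 receptors, ITGA9, the alpha subunit of an integrin that binds tenascin C (log2 fold change −1.42, SE 0.23, adjusted p = 0.0099), and CD47, a receptor of THBS1 (−1.39, SE 0.21, adjusted p = 0.00771). They further included 1 of 11 inducers, TGFB2 (−1.18, SE 0.29, adjusted p = 0.0407), 2 of 4 matrix partners, COL3A1 (−1.98, SE 0.47, adjusted p = 0.0354) and FBN1 (−1.56, SE 0.35, adjusted p = 0.0304), and 1 of 13 immediate-early genes, NR4A1 (−2.05, SE 0.44, adjusted p = 0.0249), all in edgeR. The calls of ITGA9 and CD47 were made again in each of 6 fits that left out 1 library, those of COL3A1 in 2 of 6, of TGFB2 and NR4A1 in 1 of 6 and of FBN1 in 0 of 6 (edgeR adjusted p from 0.053 to 0.111), and DESeq2 did not call TGFB2. At a mitochondrial maximum of 10% the calls of ITGA9, CD47, TGFB2 and FBN1 were lost, with doublets removed those of COL3A1, TGFB2 and FBN1, and at resolution 1.6 those of COL3A1 and FBN1. The median log2 fold change was 0.05 over the receptors, 0.43 over the inducers, −1.29 over the matrix partners and −0.28 over the immediate-early genes, against 0.03 over all 6471 genes tested. The capillary and larger-vessel markers moved with these genes as with FN1. Fibroblast markers, 10 of 10 with C7 the most abundant and none at 0, summed to 2895, 3148 and 1881 CPM in the endothelial-like cells of the control and 3382, 2102 and 2207 CPM in those of the asthma libraries. Of the 4 other matricellular genes tested there, SPARCL1 had a log2 fold change of 2.26 (SE 0.79, adjusted p = 0.129) and CCN2 −0.83 (SE 0.38, adjusted p = 0.248), neither tool called any, and 1 had an unadjusted p under 0.05.

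The cytokines that induce periostin were scarce, with 107 UMIs of IL4 and 86 of IL13 in all kept cells. IL13 had 29, 5 and 2 UMIs in the control and 38, 3 and 9 in the asthma libraries, which overlapped. Of the IL-13 response genes of airway epithelium, CLCA1, a product of mucous cells, had 1, 27 and 19 UMIs in the control and 422, 146 and 17 in the asthma libraries, which overlapped. Its log2 fold change over all kept cells was 3.29 (SE 1.27, adjusted p = 0.356 in edgeR). That of ALOX15, the most abundant of those tested, was 1.27 (SE 0.71, adjusted p = 0.51 in edgeR). The relation of these genes to POSTN was not tested. Over all kept cells none of the fixed lists held a gene called by edgeR. Of the 16 other matricellular, 16 receptor, 17 inducer and TGF-beta pathway, 12 matrix partner, 6 IL-13 response and 15 immediate-early genes tested, 6, 4, 2, 4, 1 and 2 had an unadjusted p under 0.05, and DESeq2 called CCN1, CCN2, SMOC2, SPOCK2, ITGA3, ITGA8 and TGFB2, all as higher. Of all genes in that comparison, 12.9% had an unadjusted p under 0.05 in edgeR and DESeq2 called 3.51% as higher. CCN2 had a log2 fold change of 1.28 (SE 0.26) with an adjusted p of 0.173 in edgeR. The pericyte, capillary and AT1 marker sums over all kept cells, given with POSTN above, were also higher in asthma without overlap. Their part in these calls was not tested.

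The genes whose profile over 20 named classes and subtypes was most like that of each gene were picked by Pearson r of mean log2(CPM + 10) among 7242 genes, as a description, since the classes come from the same 6 libraries and differ in depth. For POSTN these were SYT17 (r = 0.999), FAM162B (0.994) and WNT16 (0.985), all highest in pericyte-like cells. The pericyte-like profile came from asthma replicates 10 and 11 alone, which held 25 and 124 of these cells. As POSTN did not exceed a mean of 2.74 CPM in the ordered classes, these r rest mainly on the pericyte-like level. For TNC they were ALKAL1 (0.951) and the naming markers SOSTDC1 (0.948) and SYNPO2 (0.938). For THBS2 they were PAMR1 (0.980), the collagen crosslinking enzyme LOX (0.966) and MMP23B (0.966), all highest in fibroblast-like cells. SPARC was most like AMOTL2 (0.963), the collagen chaperone SERPINH1 (0.941) and FERMT2 (0.936), THBS1 most like the lung mesenchymal transcription factors TBX5 (0.842) and TBX4 (0.838) and ANGPT1 (0.837), and FN1 most like CD302 (0.849), ANO6 (0.774) and SAMD4A (0.702).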

How the data were processed

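Droplet-based 3′ single-cell RNA sequencing (v3 chemistry) was run on lung tissue of 3 control and 3 asthma monkeys, with 1 library per monkey, so that p-values measure the spread between monkeys. The deposited values were raw UMI counts per gene and cell barcode, which the authors made with Cell Ranger with the macFas6 reference. The submitters' processing notes name version 2.1.1, the file headers and the methods name other versions.

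The libraries held 5268 to 6964 barcodes. A cell stayed if it had 500 to 5000 genes, no fewer than 500 UMIs and a mitochondrial share of 25% or less, which left 24235 cells. Doublets stayed in, and their removal by score was an alternative. Counts were log-normalized and clustered with scanpy 1.11.5 (2000 variable genes, 10 principal components, 20 neighbours, Leiden resolution 0.8), then clustered again within classes. The 6 genes and the lists of other matricellular genes and matrix partners were left out of the variable genes. Naming markers among them, such as COL1A1, COL1A2 and COL3A1, stayed in, and so did the genes of the other lists. Clusters were named from fixed markers, with score thresholds set after seeing the data, and 1481 cells in clusters of mixed markers took no class. Counts of a class were summed per library and tested with edgeR 4.0.16 (TMM, filterByExpr, quasi-likelihood F test, Benjamini-Hochberg adjustment) where at least 2 libraries per group held 10 cells and, for classes other than stromal-like and endothelial-like, a gene of the 6 reached 50 CPM. DESeq2 1.42.0 was an alternative. Shares were compared over libraries with two-sided exact permutation tests, and cells with a UMI also after thinning each cell to 1500 UMIs. Limits for a count of 0 are 3 counts of the total and cover counting error only. Intervals are nominal 95% intervals from the edgeR fits over library sums, so they draw on the spread between monkeys. The SE was the absolute log2 fold change over the square root of F, and the intervals used a normal approximation. With so few libraries they are approximate and can be too narrow. In fibroblast-like cells that of THBS1, 0.04 to 1.16, left out 0 at an unadjusted p of 0.0571 in the F test. The steps for summed counts were tested on simulated data.

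The text names the 6 genes, the genes of fixed lists that were called or up to 4 of the most abundant ones, and for each of the 6 the 3 genes of most similar profile. List genes called by DESeq2 alone, IL4, IL13 and CLCA1 were named after their values were seen. The 6 genes and the lists (97 symbols, 86 in the files) were chosen with earlier results of these data known.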

Additional observations from a re-analysis of the deposited data

Results flagged for a closer look

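FN1 had higher values in all 3 asthma libraries than in all 3 control libraries in fibroblast-like cells and lower values in all 3 in endothelial-like cells. The log2 fold change of 0.43 in fibroblast-like cells did not pass (adjusted p = 0.667 in edgeR, 95% interval from −0.13 to 0.99), while that of −1.28 in endothelial-like cells did (adjusted p = 0.0294 in edgeR), and the difference between the 2 classes was not tested. In the fibroblast-like cells the macrophage markers summed to 1309.9 to 3045 CPM in the control and 6390.2 to 7507 CPM in the asthma libraries, and without APOE to 12.9 to 54.8 CPM against 36 to 50.8 CPM. Myofibroblast markers summed to 345 to 576 CPM in the fibroblast-like cells of the control and 202 to 238 CPM in those of the asthma libraries. In the endothelial-like cells the capillary markers summed to 5559.9 to 8092 CPM in the control and 20772 to 24499 CPM in the asthma libraries, and within larger-vessel EC-like cells the log2 fold change of FN1 was −0.04 (adjusted p = 0.999 in edgeR). The part of the macrophage and myofibroblast markers in the FN1 values was not tested.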

How the results depend on the processing

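Of 840 values recomputed under alternatives, 800 kept their direction or side of the threshold, or stayed within the spread or 1.5 times the main count, 12 were no longer called, 3 became called, 25 moved further, and no called value changed sign. The calls among the 6 genes numbered 2, and became 5 with every gene of at least 1 count, 1 with doublets removed, 1 at resolution 1.6, 1 without pericyte-like cells, and 0 to 2 without single libraries. FN1 in endothelial-like cells was −1.26 with doublets removed (edgeR adjusted p = 0.0688), −1.58 at resolution 1.6 (adjusted p = 0.0779) and −1.57 to −1.10 without single libraries. POSTN was 3.52 over all kept cells in DESeq2. In stromal-like cells it was 0.09 without pericyte-like cells, an alternative chosen after seeing the data, and 2.50 to 3.44 without single libraries. At a mitochondrial maximum of 10%, the group difference in the stromal-like share of POSTN UMIs was 18.8 percentage points (7.34 at 25%), and that in the capillary EC-like share of cells 1.95 (2.24 at 25%). The order of classes, which at the main resolution left out the scarce pericyte-like and myofibroblast-like cells, was also made at resolution 1.6. There, 3 of the 6 genes had the same highest class, TNC (AT2-like), SPARC (fibroblast-like) and THBS1 (classical monocyte-like). FN1 and THBS2 were highest in an unnamed cluster. POSTN, at most at a mean of 2.74 CPM in the main order, went from AT1-like to larger-vessel EC-like cells. The causes were not tested.

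Genes called over all kept cells numbered 12, and 45 with every gene of at least 1 count, 648 in DESeq2 and 0 to 11 without single libraries. In stromal-like cells 25 became 467, 99 in DESeq2, 48 at the mitochondrial maximum of 10% and 0 to 117 without single libraries. In endothelial-like cells 393 became 847, 120 at 10%, 192 with doublets removed and 87 to 278 without single libraries. In fibroblast-like cells 37 became 295, 60 in DESeq2, 0 at resolution 1.6 and 2 to 71 without single libraries. Several differences that were not called changed sign without 1 library, among them SPARC in stromal-like cells (−0.94, and 0.76 without control replicate 2). No paired analysis was possible because the control and asthma libraries share no replicate number. Control libraries held 100 endothelial-like cells and 2 pericyte-like cells in all, which limits what could be compared within them.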
